A study of Rattus norvegicus with 2 samples.

Results

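Proteasome genes were described in 2 RNA sequencing libraries of RBL-2H3, a basophilic leukaemia line of the rat that serves as a mast cell model. The members were the gene symbols made of Psm, a letter from a to g and a number, and 48 of the 15409 symbols in the data met that rule. Of these, 46 encode subunits, regulators or assembly chaperones of the proteasome. The other two are Psmc3ip, a cofactor of meiotic recombination, and Psme1-ps1, a copy related to Psme1. They stay in the counts of members unless stated. Psma8 and Psmb11, subunits of the testis and thymus forms, and Psma3l were not measured under these symbols.

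One library came from cells given normal saline and is called the saline library. The other, called the treated library, came from cells given PM2.5, fine particulate matter, plus IgE and DNP-HSA, an antigen that crosslinks IgE bound to its receptor. The labels do not state whether IgE or antigen was also added to the saline cells, so effects of the particles and of the antigen cannot be told apart. The label of the treated cells joins the agents by plus, while the extraction protocol joins them by or. The title of the treated sample carries the number 100 after PM, with no unit, and the data column named by that number was matched to it on this ground. No time is given. Each group has 1 library of 1 cell line, so no test between conditions could be made, and every difference below is between 2 libraries.

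The proteasome is the main protease for ubiquitin-tagged proteins in the cytosol and nucleus. Its core particle is a barrel of alpha rings, which gate the entry, and beta rings, which hold the proteolytic sites. The regulatory particle caps the barrel: its base holds a ring of ATPases that unfold substrates, and its lid holds the enzyme that removes ubiquitin. Cells exposed to interferon replace the catalytic beta subunits by those of the immunoproteasome, which shifts the peptides made for class I antigen presentation, and add the PA28 activator. Dedicated chaperones assemble the core and the base. Mast cells, like other cells of the immune system, can hold both forms.

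Reads over all transcripts came to 7279671 (saline) and 3964955 (treated), a depth ratio of 1.84. Of these reads, 45120 (0.62%) and 26970 (0.68%) belonged to members. Reads per member ran from 24 to 5232 in the saline and from 12 to 2382 in the treated library, and all 48 members had reads in both. Values are normalised counts, reads divided by the authors' size factor of the library. A log2 fold compares treated with saline after 1 was added to both normalised counts, and is positive where the treated library was higher. Each interval is an exact 95% one by the Clopper-Pearson method, for the ratio without the added 1. They cover counting error only, since reads are not independent molecules. Of 10 mast cell markers 9 were measured, among them Kit (11946 saline and 5440 treated reads) with the most reads and the IgE receptor gene Ms4a2 (1283 and 1164), while Tpsab1 was not. They differed both ways: the protease gene Cpa3 was the highest, at a log2 fold (treated over saline) of 1.74 (175 and 308 reads), Hdc, the enzyme that makes histamine, was at -1.07 (2851 and 713 reads), and Mcpt8l3 had 25 against 0 reads. Their summed normalised count was 26384 in the saline and 23044 in the treated library. No lymphocyte marker of 6 was measured. Of 6 macrophage markers 3 were, with a summed normalised count of 1273 in the saline and 510.4 in the treated library. Csf1r made up most of it (1401 and 286 reads), Adgre1 had 48 and 23 reads and Cd68 had 19 against 0. The part of either marker list in the results was not tested. In bulk RNA, fewer cells of a type and less RNA per cell cannot be told apart.

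Most proteasome genes stayed within 2-fold between the libraries, with more of them on the higher side in the treated library. The size rule asked for 2-fold or more and for a normalised count of 1 or more in either library. By it, 2 of 48 members (4.17%) were higher in the treated library and 0 were lower. Over all symbols with a count of 1 or more the same rule took 12.1% as higher and 19.1% as lower. Among symbols whose normalised count reached 50 in either library, as 46 members did, these shares were 7.47% and 8.59%. The median log2 fold was 0.22 over the members and -0.04 over all symbols of at least 50. A log2 fold above 0 was found for 33 of 48 members (68.8%), against 47.9% of all symbols of at least 50. Log2 folds of at least 0.5 were held by 17 members (35.4%, against 22.1%), and folds of -0.5 or less by 2 (4.17%, against 25.2%). The counting interval lay above 0 for 25 members (52.1%) and below 0 for 9 (18.8%), against 31.6% and 35.5% of all symbols of at least 50. These shares depend in part on the number of reads, and the symbols were not matched to the members for it. For comparison, the median was 0.65 over the 8 genes of the cytosolic chaperonin CCT and 0.51 over 73 genes of the cytosolic ribosome, both above that of the proteasome genes. None of these differences between gene groups has a test, since 1 library per group gives no spread between cultures.

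**Figure D1:**
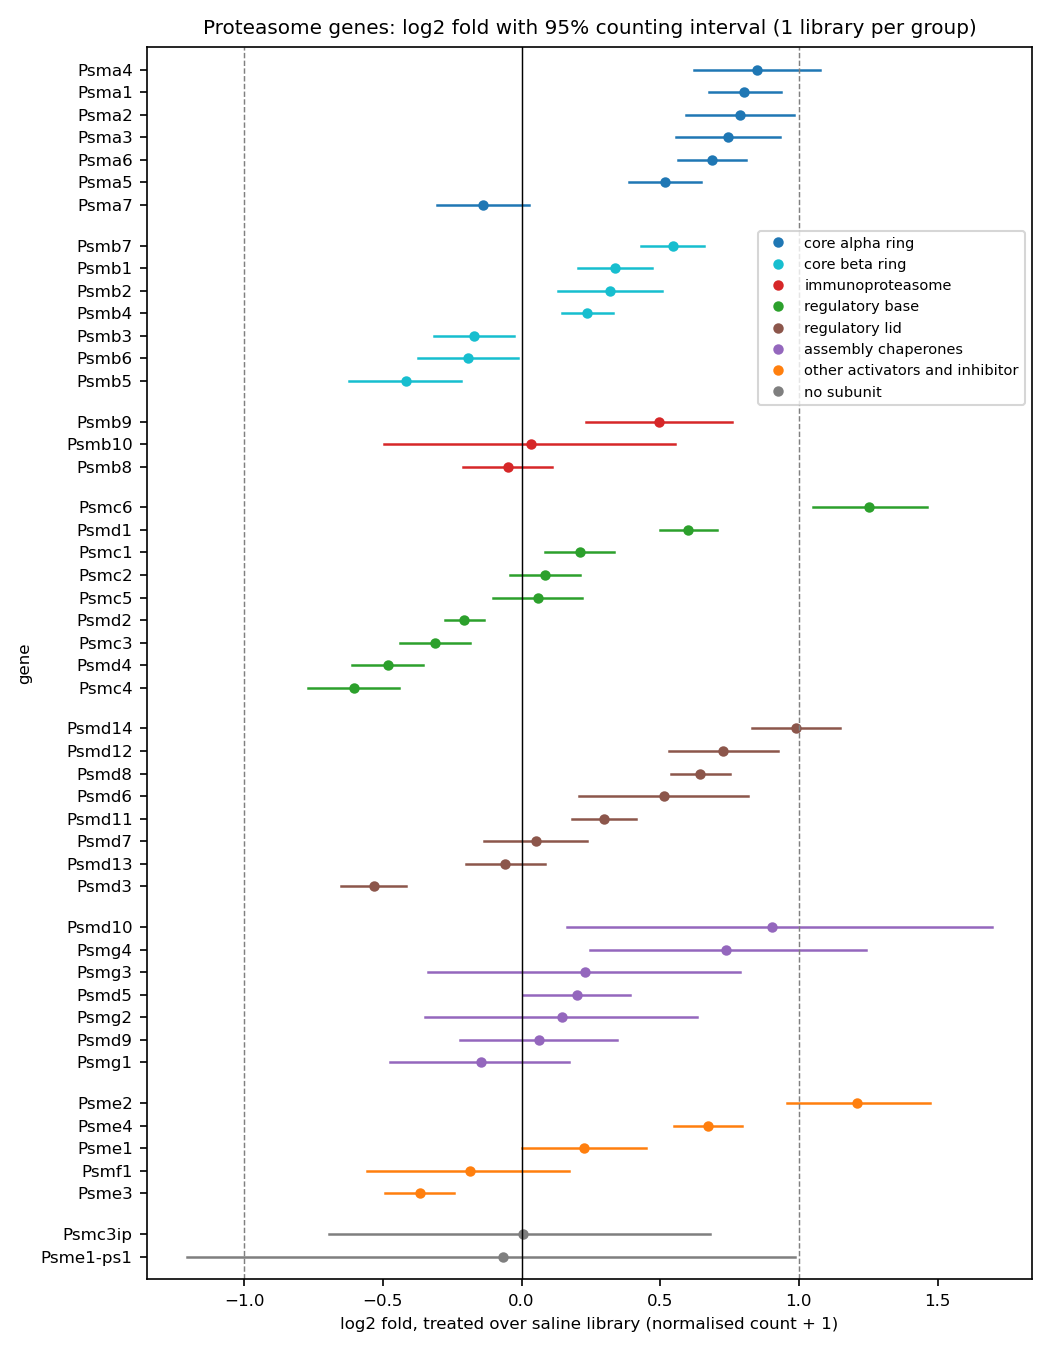
Log2 fold of each of the 48 members (points, x axis, treated over saline library) with its exact 95% counting interval (bars), by class. Dashed lines mark 2-fold. Of the 7 alpha ring genes 6 have intervals above 0, whereas the regulatory base spreads from -0.60 to 1.25.

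The alpha ring of the core had the highest class median, 0.74 over its 7 measured genes. Of these, 6 had intervals above 0 and lay within a narrow band of 0.52 to 0.85, and Psma7 stood apart at -0.14. Psma4 had a normalised count of 290.6 in the saline and 523.6 in the treated library, a log2 fold of 0.85 (interval 0.62 to 1.08, 335 and 317 reads). Psma1 was at 880.3 and 1538 (0.80, interval 0.67 to 0.93). Psma2, at 400.7 and 692.0, gave 0.79. These 3 genes and Psma3 (441.5 and 739.9, 0.74) differed from each other by less than their counting intervals. Psma6, the alpha subunit with the most reads, had 1029 and 1655 (0.69, interval 0.56 to 0.81). Psma5 had 996.6 and 1427 (0.52, interval 0.39 to 0.65). Psma7 had 814.4 in the saline and 739.9 in the treated library, and its interval of -0.30 to 0.026 held 0, though it lay below 0 with library totals made equal. The alpha ring thus made up 12.4% of the reads of the 46 proteasome genes in the saline library (exact interval 12.1 to 12.7%) and 16.4% in the treated one (16.0 to 16.9%). This share does not depend on how the libraries were scaled.

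Proteasome genes are known targets of the transcription factor Nfe2l1, which binds antioxidant response elements. The core letters TGACNNNGC, read on both strands, stood in 8 of the 43 member promoters in the RefSeq table of GRCr8 (18.6%), against 12.1% of all 33465 promoters. Each window ran from 250 bases before to 50 after the start. Psma3 was the only alpha ring gene among the 8, so its promoter is shown, from GRCr8 chr6:95219499-95219798, plus strand, with the match in capitals, which begins 12 bases before the start:
Psma3: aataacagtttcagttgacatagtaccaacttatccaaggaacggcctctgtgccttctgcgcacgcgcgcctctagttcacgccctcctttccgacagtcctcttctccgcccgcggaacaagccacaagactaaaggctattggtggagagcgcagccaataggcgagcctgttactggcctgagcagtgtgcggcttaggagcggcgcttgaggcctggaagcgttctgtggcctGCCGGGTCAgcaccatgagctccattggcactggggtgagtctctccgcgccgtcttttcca

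The 8 genes with these letters spread from -0.53 (Psmd3) to 0.74 (Psma3), with a median log2 fold of 0.19, and the 35 without them had 0.21. The letters CCAAT, the core of the NF-Y box, stood in 22 of the 43 promoters (51.2%, against 37.5% of all). They stood in those of Psma1, Psma2, Psma3, Psma4 and Psma5, and not in that of Psma6, while Psma7 had no promoter in the table. Members with CCAAT had a median log2 fold of 0.22 and those without it 0.20. A match is a description of letters in this window and shows no binding.

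Beta ring genes lay on both sides of 0. The 7 constitutive genes had a median of 0.24, with 4 intervals above 0 and 3 below. With the median of the 11615 symbols past a minimum count in both libraries set to 0, 1 interval lay below 0, that of Psmb5. Psmb7, which carries the trypsin-like site, was the highest, at 1251 in the saline and 1825 in the treated library (0.54, interval 0.43 to 0.66, 1442 and 1105 reads). The non-catalytic subunits Psmb1 (981.8 and 1240, 0.34), Psmb2 (518.7 and 647.4, 0.32) and Psmb4 (2118 and 2497, 0.24) were also on the higher side, and Psmb4 had the most reads of the ring. Psmb3, likewise non-catalytic, was at 1097 and 974.5 (-0.17, interval -0.31 to -0.029). The other two catalytic subunits were lower in the treated library: Psmb6, the caspase-like subunit, had 702.5 and 614.4 (-0.19, interval -0.37 to -0.014), and Psmb5, the chymotrypsin-like subunit, had 628.8 and 470.7 (-0.42, interval -0.62 to -0.22). The intervals of Psmb5 and Psmb7 do not overlap, but these are the lowest and highest of the ring, a pair picked by its folds. As a share of proteasome reads the beta ring was the same within its intervals in both libraries, at 18.7% (18.3 to 19.0%) and 18.6% (18.1 to 19.1%).

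**Figure D2:**
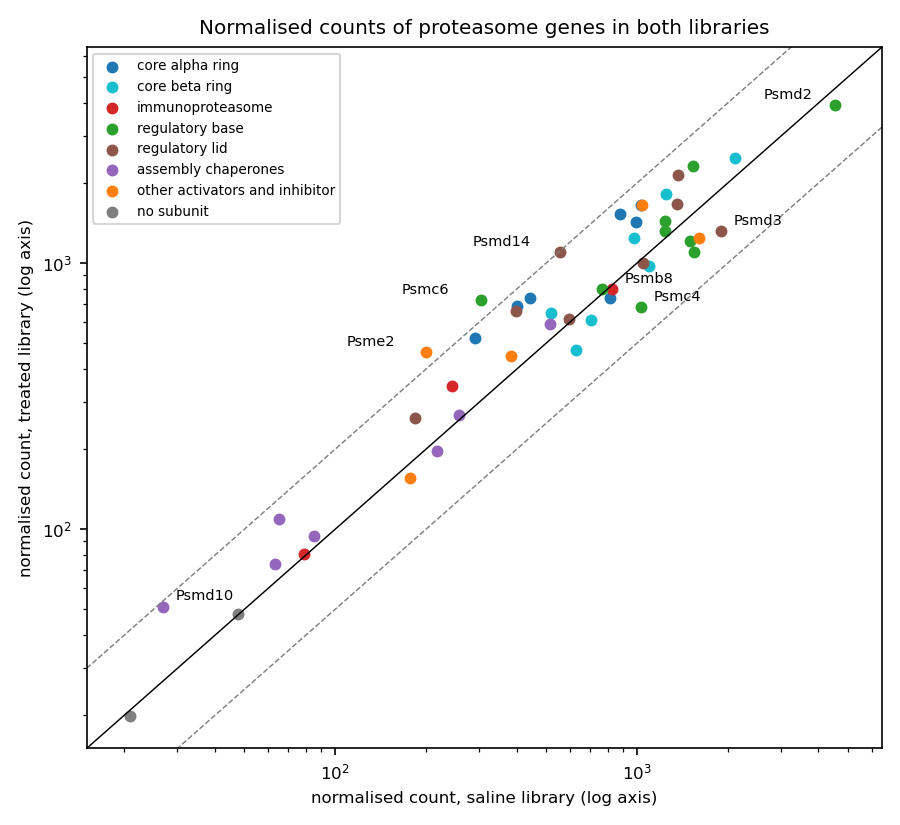
Normalised count of each member in the saline (x axis) and treated library (y axis), both log axes, coloured by class. The solid line marks equal values and the dashed lines 2-fold. Psmc6 and Psme2 lie above the upper dashed line and no member lies below the lower one.

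The 3 immunoproteasome genes differed little in sum. Psmb8, which takes the place of Psmb5, was at 827.4 in the saline and 799.4 in the treated library (-0.05, interval -0.21 to 0.11, 954 and 484 reads). Psmb9, which takes the place of Psmb6, was the highest, at 244.6 and 345.2 (0.50, interval 0.23 to 0.76, 282 and 209 reads). Psmb10, which takes the place of Psmb7, had few reads, at 78.9 and 80.9 (0.036, or -0.019 with library totals made equal, interval -0.50 to 0.55, 91 and 49 reads). Their reads were 2.95% of proteasome reads in the saline library (2.79 to 3.11%) and 2.76% in the treated one (2.56 to 2.96%).

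Ratios between genes do not depend on library scaling. In all, 8 were computed: the 3 immunoproteasome genes against their constitutive counterparts, Psme2 against Psme1, and 4 whose genes were picked for their differing folds and are therefore not given. Relative to Psmb5, Psmb8 was 1.29 times as high in the treated library (log2 0.37, exact interval 0.11 to 0.63). Here the sum of Psmb8 hardly differed and Psmb5 was lower, though the main transcripts of Psmb8 differed in opposite directions, as given below. Relative to Psmb6, Psmb9 was 1.61 times as high (log2 0.69, interval 0.37 to 1.01). For Psmb10 relative to Psmb7 the ratio lay on the other side, at 0.703 times (log2 -0.51, interval -1.05 to 0.022), and its interval held 0. The 3 ratios thus did not share a direction.

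Psme1 and Psme2 encode the alpha and beta subunits of the PA28 activator, which opens the core gate without ATP and is induced by interferon. Psme2 was past 2-fold, with a normalised count of 199.5 in the saline and 462.5 in the treated library (1.21, interval 0.96 to 1.47, 230 and 280 reads). Psme1 had 382.5 and 447.6 (0.23, interval 0.0031 to 0.45, 441 and 271 reads), and reads of Psme1 could be split with its copy Psme1-ps1 (24 and 12 reads). Relative to Psme1, Psme2 was 1.98 times as high in the treated library (log2 0.99, interval 0.64 to 1.33). The nuclear activator Psme3 had the most reads of this class and was lower, at 1604 and 1244 (-0.37, interval -0.49 to -0.24). Psme4, the large activator linked to histone breakdown, was at 1039 and 1655 (0.67, interval 0.55 to 0.79). The inhibitor Psmf1 was at 176.9 and 155.3 (-0.19, interval -0.56 to 0.17).

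Genes induced by interferon often hold an interferon-stimulated response element near the start. The letters GAAANNGAAA, read on both strands, stood in 7 of the 43 member promoters (16.3%), against 3.92% of all promoters. The 7 were Psma4, Psmb3, Psmb8, Psmb10, Psmd7, Psme2 and Psmg4, with log2 folds from -0.17 to 1.21 and a median of 0.052, against 0.22 for the 36 without the letters. The promoters of the interferon-inducible Psme2, Psmb8 and Psmb10 are shown because they share these letters. The fold of Psme2, at 1.21, lay apart from those of Psmb8 and Psmb10, at -0.05 and 0.036. Psmb8 sums transcripts that differ in opposite directions, and Psmb10 had few reads (91 and 49). The sequences are from GRCr8 chr15:33052702-33053001, chr20:4656982-4657281 and chr19:50743243-50743542, all on the minus strand, with the matches in capitals:
Psme2: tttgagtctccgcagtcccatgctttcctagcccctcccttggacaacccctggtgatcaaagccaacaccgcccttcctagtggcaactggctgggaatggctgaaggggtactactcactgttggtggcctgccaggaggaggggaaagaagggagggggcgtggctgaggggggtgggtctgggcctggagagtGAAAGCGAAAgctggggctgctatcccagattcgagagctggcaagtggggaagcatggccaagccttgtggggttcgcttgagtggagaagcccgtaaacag
Psmb8: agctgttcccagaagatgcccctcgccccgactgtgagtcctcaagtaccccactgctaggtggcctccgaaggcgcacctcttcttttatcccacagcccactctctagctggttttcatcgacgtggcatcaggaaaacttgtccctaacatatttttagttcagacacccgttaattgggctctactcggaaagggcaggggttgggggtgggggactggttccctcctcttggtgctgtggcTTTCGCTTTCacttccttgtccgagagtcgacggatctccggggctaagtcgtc
Psmb10: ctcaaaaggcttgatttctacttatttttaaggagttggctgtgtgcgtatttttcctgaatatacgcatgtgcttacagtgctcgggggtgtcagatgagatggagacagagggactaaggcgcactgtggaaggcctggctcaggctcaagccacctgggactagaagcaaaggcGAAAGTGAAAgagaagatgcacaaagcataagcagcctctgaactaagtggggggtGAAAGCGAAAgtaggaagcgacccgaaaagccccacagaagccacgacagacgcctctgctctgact

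The match begins 53 bases before the start in Psme2 and 4 bases before it in Psmb8, where it reaches past the start. Psmb10 holds it at 73 and 17 bases before the start. Psmb9 shares its promoter region with Tap1, the peptide transporter, which is read the opposite way, and its window did not hold the letters. Tap1 was at -0.31 (interval -0.47 to -0.14) beside 0.50 for Psmb9, so the genes on both sides of that region differed in opposite directions between the libraries.

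Of the regulatory base, 9 genes met the symbol rule, with a median of 0.058, 3 intervals above 0 and 4 below. The ATPases form 1 ring in which each is present once, yet their genes ran over the widest span of any class. Psmc6 was the highest of all members, at 303.6 in the saline and 725.1 in the treated library (1.25, interval 1.05 to 1.46, 350 and 439 reads). Psmc4 was the lowest of all members, at 1036 and 682.1 (-0.60, interval -0.77 to -0.44, 1195 and 413 reads). Psmc3 was also lower, at 1503 and 1211 (-0.31, interval -0.44 to -0.19). Psmc1 (1241 and 1435, 0.21), Psmc2 (1244 and 1318, 0.084) and Psmc5 (769.3 and 801.0, 0.058) lay between them. Summed over the 6 ATPases the log2 fold was 0.018 (interval -0.04 to 0.075).

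Of the base subunits that are no ATPases, Psmd2, a scaffold that docks ubiquitin-like domains, had the most reads of all members, at 4538 and 3934 (-0.21, interval -0.28 to -0.14, 5232 and 2382 reads). Its larger relative Psmd1 was at 1532 and 2324 (0.60, interval 0.50 to 0.70), so these paired scaffolds differed in opposite directions. The ubiquitin receptor Psmd4 was at 1546 and 1107 (-0.48, interval -0.61 to -0.35). The base took 35.1% of proteasome reads in the saline library (34.7 to 35.5%) and 30.4% in the treated one (29.9 to 31.0%). It was the only class whose share was lower beyond its intervals. Its summed log2 fold was -0.019, with an interval of -0.057 to 0.020 that held 0. This sum and the share leave out Adrm1, a ubiquitin receptor of the base outside the symbol rule. Adrm1 was lower, at 1122 in the saline and 437.7 in the treated library (-1.36), so the sum does not describe the whole base.

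The promoter of Psmc6 is shown because its gene had the highest fold. It is from GRCr8 chr15:21022064-21022363, plus strand, with the ETS core letters CCGGAAG in capitals, which begin 69 bases before the start:
Psmc6: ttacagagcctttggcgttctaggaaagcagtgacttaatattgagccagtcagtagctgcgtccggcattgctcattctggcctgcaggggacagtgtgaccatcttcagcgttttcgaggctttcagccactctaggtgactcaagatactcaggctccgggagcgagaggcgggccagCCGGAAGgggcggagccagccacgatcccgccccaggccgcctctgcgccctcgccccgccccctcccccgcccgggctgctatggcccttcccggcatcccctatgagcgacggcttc

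Read on both strands, CCGGAAG stood in 15 of the 43 member promoters (34.9%), against 8.74% of all promoters in the table, which also holds genes that these cells do not express. Among these 15 the log2 folds ran from -0.48 (Psmd4) to 1.25 (Psmc6) with a median of 0.21, the same to 2 decimals as for the 28 without it.

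The lid had a median of 0.40 over 8 genes, with 5 intervals above 0 and 1 below. Psmd14, the metalloprotease that removes ubiquitin chains from substrates, lay just inside 2-fold, at 555.1 in the saline and 1103 in the treated library (0.99, interval 0.83 to 1.15, 640 and 668 reads). Its partner Psmd7, which has the same fold of protein but no catalytic site, was at 595.9 and 617.7 (0.052, interval -0.13 to 0.24). Psmd12 had 398.1 and 659.0 (0.73, interval 0.53 to 0.92). Psmd8, with the highest mean normalised count of the lid, had 1370 and 2142 (0.65, interval 0.54 to 0.75). Psmd6 was at 183.9 and 262.6 (0.51), Psmd11 at 1363 and 1673 (0.30) and Psmd13 at 1046 and 1004 (-0.059). Psmd3 was the lowest, and had the most reads of the lid over both libraries, at 1907 and 1318 (-0.53, interval -0.65 to -0.42, 2199 and 798 reads). The share of the lid was 19.0% (18.6 to 19.4%) in the saline and 19.7% (19.3 to 20.2%) in the treated library. The share and the median leave out the lid subunit Sem1, which was measured under its older symbol Shfm1, outside the rule. Shfm1 was higher, at 384.2 and 878.7 (1.19).

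Assembly chaperones had a median of 0.20 over 7 genes, with 3 intervals above 0 and 4 that held 0. With library totals made equal, 2 lay above 0. Psmd10, known as gankyrin, a chaperone of the base, was the highest, at 26.9 and 51.2 (0.90, interval 0.16 to 1.70, 31 and 31 reads). Its fellow base chaperones Psmd5 (515.2 and 591.3, 0.20, with the most reads of the class) and Psmd9 (257.6 and 269.2, 0.063) differed less. Among the core chaperones, Psmg4 was at 65.0 and 109.0 (0.74, interval 0.25 to 1.24, 75 and 66 reads), while its partner Psmg3 was at 63.3 and 74.3 (0.23, interval -0.34 to 0.79). The pair that builds the alpha ring, Psmg1 (217.7 and 196.5, -0.15) and Psmg2 (85.0 and 94.1, 0.15), had intervals that held 0. The interval of Psmg1 overlapped that of Psma7 and none of those of the alpha ring genes Psma1 to Psma6. That of its partner Psmg2, -0.35 to 0.63, overlapped those of Psma2 to Psma6. As a share of proteasome reads the chaperones stood at 3.15% (2.99 to 3.32%) and 3.12% (2.91 to 3.33%). Psmc3ip was at 47.7 and 47.9 and Psme1-ps1 at 20.8 and 19.8.

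The 48 members were listed with 63 transcripts, 10 of them with more than 1. In Psmb8, Psme4, Psma6 and Psme3, transcripts of 1 gene had counting intervals that did not overlap. Psmb8 was listed with 4 transcripts. ENSRNOT00000000528 was at 423.3 and 569.8 (0.43, interval 0.23 to 0.63), or 51.2% and 71.3% of the gene. ENSRNOT00000089996 was at 320.9 and 161.9 (-0.98, interval -1.32 to -0.66), or 38.8% and 20.2%. The sum of the gene, at -0.05, thus holds transcripts that differ in opposite directions. For Psme4, ENSRNOT00000078329 had 635.7 and 1234 (0.96, interval 0.81 to 1.11) and ENSRNOT00000088916 had 403.3 and 421.2 (0.062, interval -0.16 to 0.29). Transcripts with reads in the treated library alone were ENSRNOT00000084062 of Psma6, with 0 against 28 reads and at least 17.8-fold higher against a floor of 3 reads, and ENSRNOT00000076727 of Psme3, with 0 against 17 reads and at least 10.8-fold higher. The lower limits of their exact intervals, which also count the error of the treated reads, were lower, at 3.76 and 2.97 on the log2 scale. Each was under 3% of its gene's count, at 2.79% and 2.26%. The sources used here do not say how reads were divided between transcripts that share exons, which limits each of these values.

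**Figure D3:**
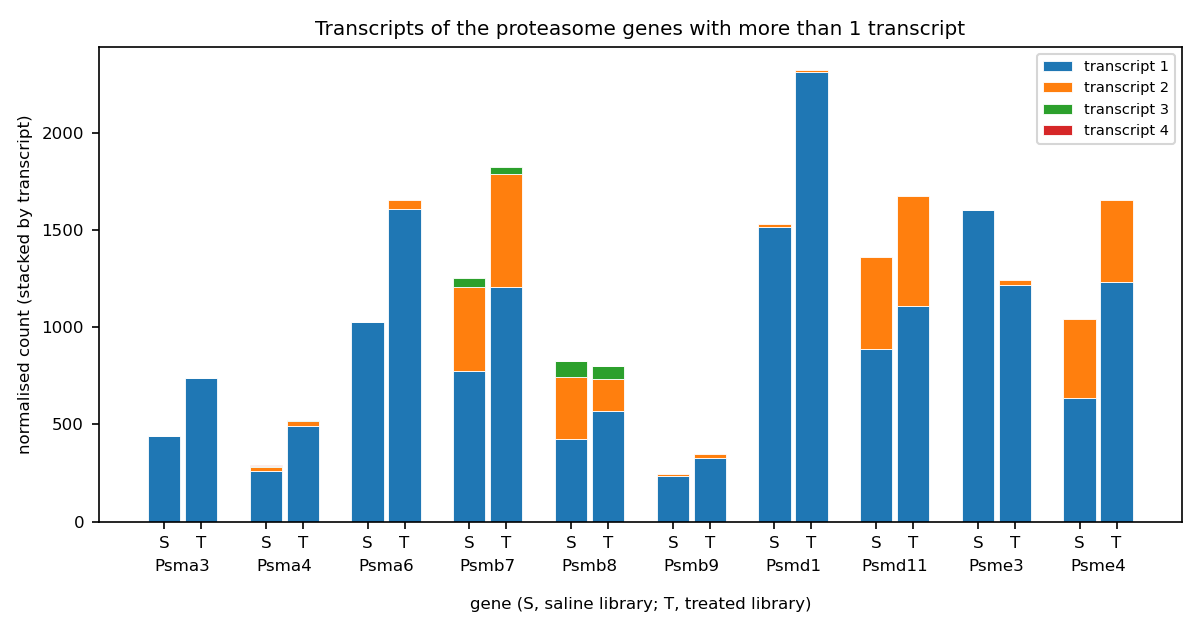
Normalised count (y axis) of each transcript, stacked, for the 10 members with more than 1 transcript, in the saline (S) and treated library (T). Transcripts are numbered within a gene by their level in the treated library. In Psmb8 the second transcript is at 320.9 in the saline and 161.9 in the treated library while the first is higher in the treated one.

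In a separate deposited list of the 57 transcripts the authors selected, 0 were of a member. Since the 57 are 0.28% of the 20367 transcripts listed, nothing about the members is read from this count. The authors' deposited table of values gives the transcript of Psmc6 the lowest p of any member transcript, though not the lowest of all transcripts. With 1 library per group, nothing about the members is read from these p-values.

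Members lay, in part, among genes with folds on the same side. Each gene of at least 50 that matched the RefSeq table was set beside its 10 nearest such genes on the chromosome. Other members were not left out of these neighbours, so members close together could share them. Psme1 and Psme2 had the same neighbour median, 0.070, as did Psmb8 and Psmb9, at -0.18. Across 46 members the Spearman correlation between a member's log2 fold and the median of its neighbours was 0.50, and across 8200 genes it was 0.36. This is a description, since neighbouring genes share both libraries and may share base composition, and its part in the results was not tested. Neighbours had a median of 0.49 for the alpha ring, where 5 of 7 genes lay among neighbours above 0, and of -0.33 for the beta ring and -0.21 for the base. Of all 46 members, 18 (39.1%) lay among neighbours above 0, near the share of 40.7% over the 8200 genes. In the alpha ring, Psma6, at 0.69, lay among neighbours at 0.91, and Psma7, at -0.14, among neighbours at -0.92. For the 3 highest members the neighbours were nearer 0, at 0.11 for Psmc6, 0.070 for Psme2 and 0.020 for Psmd14, while the fourth, Psmd10 (0.90), lay among neighbours at 0.78. The median of these neighbour values over the 8200 genes was -0.11. In all, 34 of 46 members (73.9%) were above the median of their neighbours, against 51.1% of the 8200 genes. These were 6 of 7 in the alpha ring, the beta ring and the assembly chaperones each, 3 of 3 immunoproteasome genes, 5 of 9 in the base, 5 of 8 in the lid and 3 of 5 activators and inhibitor.

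**Figure D4:**
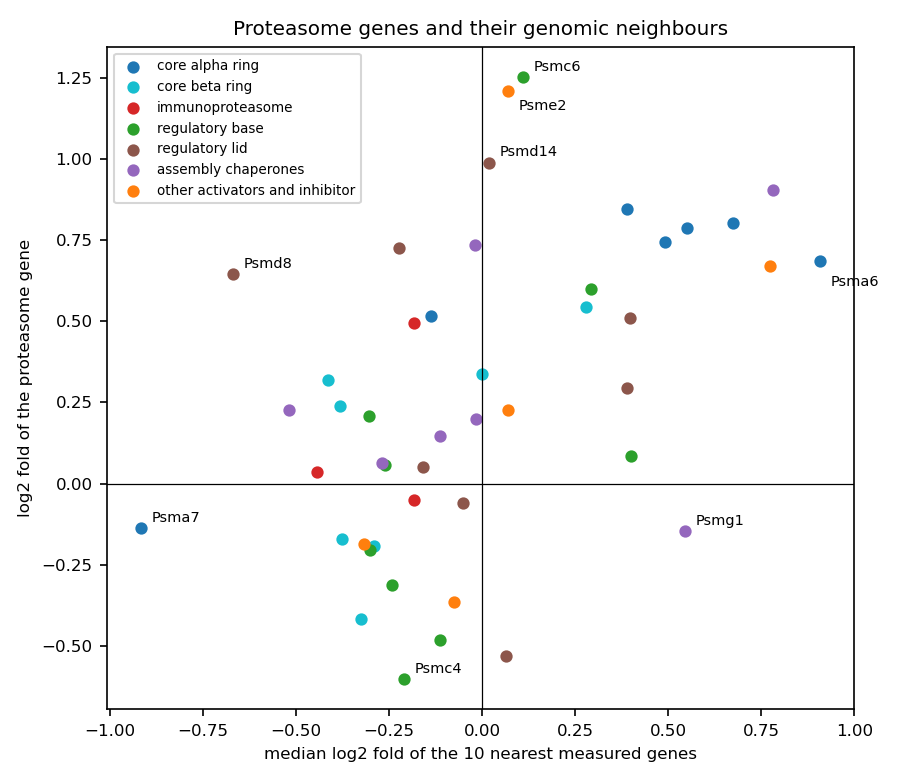
Log2 fold of each of 46 members (y axis) against the median log2 fold of the 10 nearest measured genes (x axis), coloured by class. Alpha ring genes lie mostly at the upper right, while Psmc6, Psme2 and Psmd14 are high with neighbours near 0.

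Of the members, 7 start within 1 kb of a measured gene read the opposite way. Psmd10 and the autophagy protease gene Atg4a were alike, at 0.90 and 0.94, as were Psma2 and the mitochondrial ribosomal gene Mrpl32, at 0.79 and 0.85. Both partners had few reads and wide intervals: Atg4a 43 and 44 reads (0.32 to 1.60) and Mrpl32 48 and 46 reads (0.25 to 1.48). Psme2 (1.21) and the ubiquitin ligase gene Rnf31 (-0.38, interval -0.71 to -0.063) differed in opposite directions, as did Psmb9 and Tap1. Psmg2 (0.15) stood beside Cep76 (0.018), Psmc5 (0.058) beside Ftsj3 (-0.20) and Psmd13 (-0.059) beside Sirt3 (-0.07). The libraries keep strand, per the labels' protocols, but the sources used here do not say that the counting used it, so reads where such genes overlap may not be told apart.

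Other genes of the pathway, taken from lists drawn up for this description, also spread both ways. For the counts past 2-fold below, the shares over all symbols of at least 50 were 7.47% higher and 8.59% lower. Of 7 further subunits and chaperones 5 were measured, with a median of 0.57 and 1 past 2-fold on each side. The ubiquitin receptor of the base Adrm1 was the lowest, at 1122 in the saline and 437.7 in the treated library (-1.36, interval -1.55 to -1.17), past 2-fold on the lower side, where no member lay. Shfm1, the older symbol of the small lid subunit Sem1, was past 2-fold the other way, at 384.2 and 878.7 (1.19, interval 1.01 to 1.38). The core maturation factor Pomp was at 135.3 and 214.7 (0.66, interval 0.32 to 1.01).

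Among 9 deubiquitinases and shuttle factors bound to the proteasome, 1 was at least 2-fold higher and 0 lower, with a median of 0.16. Uchl5, which is docked on the proteasome by the Adrm1 protein, was at 52.9 and 155.3 (1.54, interval 1.07 to 2.04, 61 and 94 reads), opposite to Adrm1. Usp14 was at 0.51, the abundantly read shuttle Rad23b at 0.16 and Ubqln4 at -0.77. Of 5 ubiquitin and activating enzyme genes 4 were measured and 2 were past 2-fold, both higher, with a median of 1.03. These were Uba6, which activates ubiquitin (182.1 and 447.6, 1.29, interval 1.03 to 1.56), and Uba3, which activates the ubiquitin-like NEDD8 (262.8 and 551.7, 1.07). Uba1, the main activating enzyme, was lower at 6177 and 4504 (-0.46, interval -0.52 to -0.39). Summed over the 4 measured genes, the log2 fold was 0.039, with an interval of -0.011 to 0.089 that held 0. Rps27a, which encodes ubiquitin fused to a ribosomal protein, was at 0.99 (interval 0.89 to 1.09). Of 9 genes of the p97 segregase, 0 were past 2-fold, with a median of 0.16, from -0.35 for Faf2 to 0.63 for Ubxn4. Vcp itself was at 5832 and 5637 (-0.049, interval -0.11 to 0.011).

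Among 10 transcription factor genes and modifiers linked to proteasome genes, 1 was at least 2-fold higher and 0 lower, with a median of -0.32. Nfe2l1 was at 1544 and 1260 (-0.29, interval -0.42 to -0.17) and its deglycosylase Ngly1 at 70.3 and 122.2 (0.79). All 3 small Maf partners were below 0, with Mafg at -0.999, Maff at -0.62 and Mafk at -0.61. Irf1, a driver of immunoproteasome genes, was at 108.4 and 231.2 (1.09, interval 0.73 to 1.45). It stood beside Psmb8 and Psmb10 near 0 and Psmb9 and Psme2 on the higher side. In the list of 8 class I peptide loading genes, 1 was past 2-fold, B2m, the light chain, at 553.4 and 1439 (1.38, interval 1.23 to 1.53). The transporters Tap1 (-0.31) and Tap2 (-0.25) and the bridging factor Tapbp (-0.17) were below 0, and the endoplasmic reticulum chaperones Canx (0.90) and Pdia3 (0.63) above it. The list's median was 0.33, and Calr, with the most reads, was at 0.082.

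**Figure D5:**
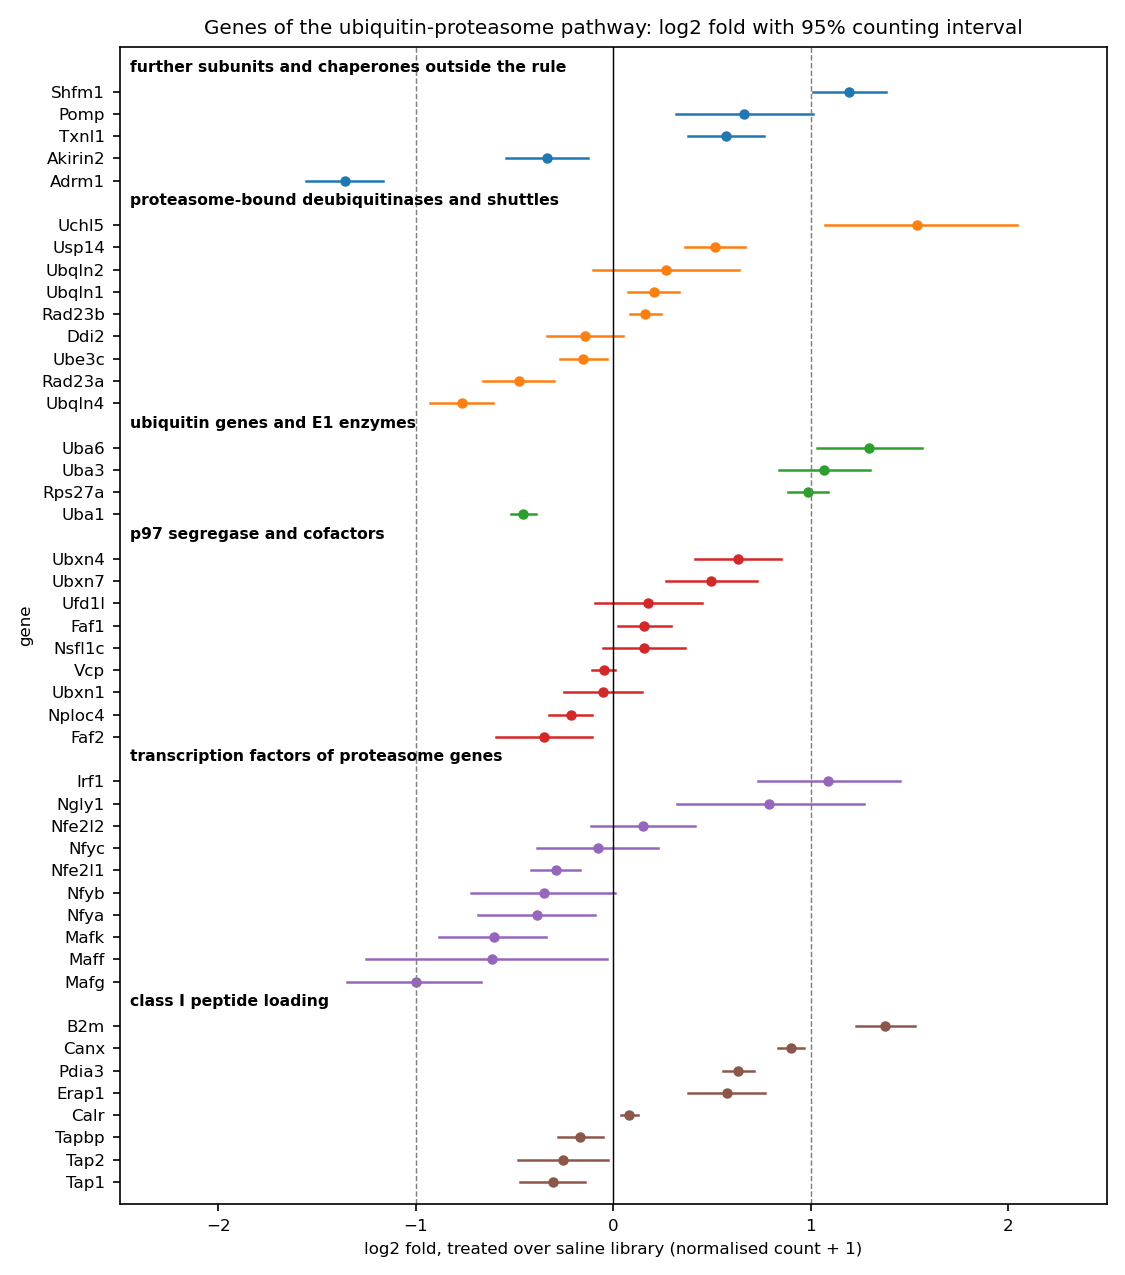
Log2 fold (points, x axis, treated over saline library) with exact 95% counting interval (bars) for other genes of the ubiquitin-proteasome pathway and of class I peptide loading, by list. Adrm1 lies at -1.36 and Uchl5 at 1.54, both past the dashed lines at 2-fold.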

How the data were processed

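Total RNA gave 1 strand-specific library per group, made with a TruSeq kit per the labels' protocols. Of tools, the submitters' processing notes list FastQC, STAR 2.5, Cuffnorm and also DESeq 1.22.1, without role or order. The sources used here give no genome build, annotation or counting settings. The deposited values are log2 per transcript, computed by the authors. Undoing the log2 and taking off 1 gave whole reads for 100% of values (tolerance 1e-06 reads), with size factors of 1.15 (saline) and 0.605 (treated). The authors' deposited p-values come without a named program, and their values are not given here. Another 2 columns of per-sample values were left unused.

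Values were summed over the transcripts of a symbol, and 1276 transcripts without one were left out. Members, classes and gene lists were chosen with earlier results of these data known. Every member could be named. Values in both libraries were due for those past 2-fold and, per class, for the highest and lowest fold and the highest mean normalised count. For the other lists, the largest difference each way and the highest mean normalised count were due. The ratios, neighbours, divergent genes and promoter letters were chosen after the values were seen. Some genes of the pathway lists are not reported here. Promoters are from RefSeq, GRCr8, for 43 of 48 members. Alternatives were a pseudocount of 5, other minimums, 2 rescalings, the highest transcript alone and coding transcripts alone. The scripts were tested on simulated data. Versions were Python 3.11.15, SciPy 1.17.1, NumPy 2.4.6, Matplotlib 3.10.9 and pandas 2.3.3.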

Additional observations from a re-analysis of the deposited data

How the results depend on the processing

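The count of members at least 2-fold higher was 2 under every alternative tried except 1. That alternative set to 0 the median of the 11615 symbols past a minimum count in both libraries, a shift of 0.032. The count was 3 there, the third being Psmd14. The count at least 2-fold lower was 0 throughout. The median over the members ran from 0.16 with library totals made equal, a shift of -0.056, to 0.25 with the median of those 11615 symbols set to 0. The alpha ring median ran from 0.69 to 0.78 over the alternatives. The median of the immunoproteasome genes was -0.019 with equal totals and 0.43 with the highest transcript alone, where Psmb8 was at 0.43; that setting also put Psme4 at 0.96. With equal totals Psmb10, Psmd7 and Psmc3ip, all near 0, were below 0. Leaving out the 2 symbols that are no subunit, chosen after the data were examined, gave a median of 0.23. No paired analysis was possible because each group holds 1 library, and none could be left out. The members whose counting interval lay above 0 were 25 as deposited, 23 with equal totals and 25 with the median set to 0, and those below 0 were 9, 10 and 7; this was also chosen after the data were examined. Depth limits the members with few reads, down to 24 and 12 for Psme1-ps1.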
